A study of Mus musculus with 8 samples.

Results

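The 9 genes described here are transcripts of myelin and of the oligodendrocytes that make it (Mbp, Mobp, Mal, Mag, Mog, Cnp, Cldn11, Ermn and Tppp3), measured in sorted microglia. They were taken by gene symbol from a count table of 35583 genes, and each symbol matched 1 row. The mice were young, of wild-type genotype, and had been given plasma protein tagged with a dye 20 hours earlier, and microglia, the macrophages of the brain, were sorted from their hypothalamus. Labels name the groups plasma-negative and plasma-positive microglia (4 libraries each), and both come from injected mice. An untreated group is not among the samples used here. Total RNA was sequenced in bulk after Smart-seq2 amplification, which works from very little RNA, and nothing in the labels says whether the 4 libraries of a group came from separate animals, so p-values measure the spread between these libraries.

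Oligodendrocytes wrap axons in a multilayered membrane, myelin, and transport several myelin mRNAs, Mbp above all, out into the sheath, where the protein is made. Microglia engulf myelin during development and turnover, and RNA of other brain cells can also enter a sorted sample. In bulk RNA, more cells of a type and more RNA per cell cannot be told apart. The Mbp locus in addition encodes Golli transcripts, which are known from immune cells, and counts per gene do not separate these from the transcripts of classic myelin basic protein.

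Most of the 9 genes were present at a low level in both groups, and Mal and Tppp3, near-absent from plasma-negative libraries, were the 2 called higher in plasma-positive microglia by edgeR. Both were tested only because they passed a filter on low counts through the plasma-positive libraries, and with 1 library left out Mal was called in 2 of 8 fits and Tppp3 in 0 of 8. Cnp, Mbp and Mag were found in all 8 libraries and together made up 76.7% to 99.9% of the summed CPM of the 9 genes in a library (CPM are read counts scaled to the library's total). Mobp, Cldn11 and Ermn were patchy, high in some libraries and near 0 in others of the same group. Mog was seen mainly in 2 plasma-negative libraries. Cnp lay above every plasma-negative library in all 4 plasma-positive libraries but missed the threshold.

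Library totals ran from 2963094 counts (plasma-negative replicate 4) to 21422738 (plasma-negative replicate 1), so that 3 counts, the floor used for calling a gene seen, equalled 1.01 and 0.133 CPM in these libraries. The 13 microglial markers, such as Csf1r and P2ry12, summed to between 78850 and 91937 CPM in plasma-negative and between 87252 and 93262 CPM in plasma-positive libraries. The 9 myelin genes summed to 142, 156, 221 and 162 CPM in plasma-negative replicates 1 to 4 and to 280, 444, 279 and 220 CPM in plasma-positive replicates 1 to 4. Plasma-negative replicate 3 slightly exceeded plasma-positive replicate 4, so the groups overlapped. The log2 ratio of the group means was 0.84, and 0.61 without plasma-positive replicate 2. It is given without a test, since the genes had been chosen with results of these data known.

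Plasma-positive replicate 2 stood apart in neuronal transcripts and in the summed astrocyte markers other than Slc1a3, and plasma-positive replicate 1 did so to a lesser degree. The 16 neuronal markers summed to 135, 516, 16.1 and 6.37 CPM in plasma-positive replicates 1 to 4, against 10.4 to 47.6 CPM in plasma-negative libraries. All 16 were highest in plasma-positive replicate 2, among them Snap25, a synaptic vesicle fusion protein, at 124 CPM there, 38.3 CPM in plasma-positive replicate 1 and 0 CPM in replicate 3. Of the 9 myelin genes, 5 (Mbp, Mobp, Mal, Cldn11 and Ermn) were highest in that library, where the same was true of 12.1% of all tested genes. Astrocyte markers summed to 214 to 317 CPM in plasma-positive and 219 to 337 CPM in plasma-negative libraries, and endothelial markers to 21.6 to 65.1 and 27.3 to 52.7 CPM. In plasma-positive replicate 2 the endothelial sum was 38.8 CPM, inside the plasma-negative range. Mural and fibroblast markers were highest in plasma-positive replicate 3, at 19.5 CPM. Most of the astrocyte sum was Slc1a3, a glutamate transporter, in every library, and Slc1a3 itself was lowest in plasma-positive replicate 2, at 164 CPM. The other 11 astrocyte markers summed to 17.2 to 22.7 CPM in plasma-negative libraries and to 45.2, 153, 16.8 and 28.5 CPM in plasma-positive replicates 1 to 4, and were thus also highest in plasma-positive replicate 2. Oligodendrocyte precursor markers summed to 96.4 to 142 and 94.7 to 124 CPM, most of it from Tmem100. Fold changes and means that rest on plasma-positive replicate 2 are also given without it below. The part of neuronal and astrocyte RNA in the myelin values was not tested.

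**Figure D1:**
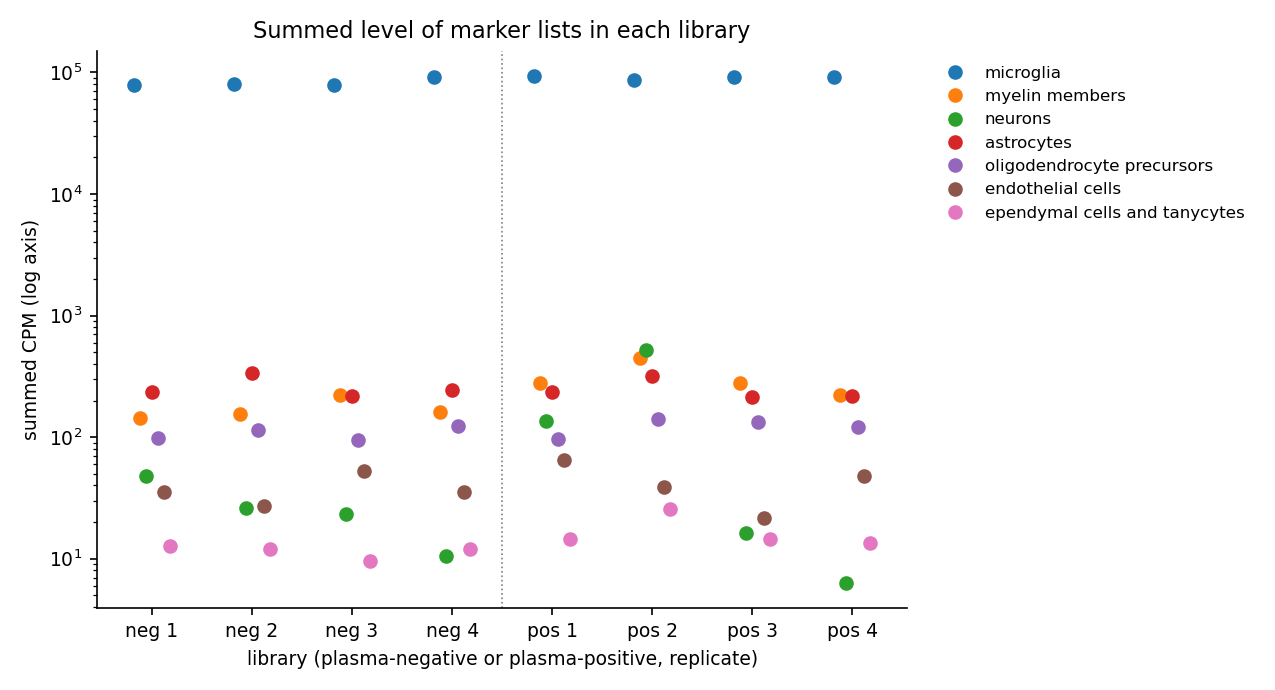
Summed CPM (log axis) of marker lists in each of the 8 libraries, one colour per list, with plasma-negative libraries (neg) left and plasma-positive libraries (pos) right of the dotted line. Microglial markers stay near the top in every library, while the neuronal sum reaches 516 CPM in plasma-positive replicate 2 and 135 CPM in replicate 1, and the 9 myelin genes peak in the same replicate 2.

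Myelin basic protein, the product of Mbp, holds the cytoplasmic faces of the myelin membrane together. Mbp (ENSMUSG00000041607, chromosome 18, 82475146 to 82585637, plus strand, coordinates of the deposited table, build GRCm38) was at 35.0, 34.9, 67.7 and 25.6 CPM in plasma-negative replicates 1 to 4. It was at 59.3, 157, 42.3 and 27.3 CPM in plasma-positive replicates 1 to 4. The groups overlapped widely, and plasma-positive replicate 2 held 2.32 times as much as the next library. The means were 40.8 ± 18.5 and 71.5 ± 58.6 CPM (SD, n = 4 each), a log2 change of 0.80 ± 0.48 (standard error, SE) that was not called (edgeR quasi-likelihood test, adjusted p = 0.516). Without plasma-positive replicate 2 the log2 change was 0.07 (edgeR, adjusted p = 0.977), so that this single library carried the difference in means.

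Mobp encodes a second basic protein of the compact myelin sheath. Mobp (ENSMUSG00000032517, chromosome 9, 120149707 to 120181484, plus strand) had 251, 0, 3 and 0 counts in plasma-negative replicates 1 to 4 and 193, 945, 186 and 11 counts in plasma-positive replicates 1 to 4. In CPM these were 11.1, 0, 0.175 and 0 against 21.2, 48.0, 9.44 and 1.23. All 4 plasma-positive libraries exceeded plasma-negative replicates 2 to 4, but plasma-negative replicate 1 lay among them. The log2 change was 2.74 ± 1.48 (SE; edgeR, adjusted p = 0.456), 1.86 without plasma-positive replicate 2 (edgeR, adjusted p = 0.748), and 7.81 without plasma-negative replicate 1 (edgeR, adjusted p = 0.052).

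Mobp and Mbp did not keep one ratio across libraries. Mobp made up 24.1% of the Mobp and Mbp reads in plasma-negative replicate 1 and 26.4%, 23.4% and 18.3% in plasma-positive replicates 1 to 3. It made up 4.31% in plasma-positive replicate 4 (exact Clopper-Pearson 95% interval 2.17% to 7.59%) and 0.258% in plasma-negative replicate 3 (0.0531% to 0.751%), the plasma-negative library with the most Mbp. Plasma-negative replicate 2 had 0 Mobp reads beside 554 Mbp reads. The floor of 3 counts equals 0.542% of those 554 reads, and the exact interval allows a share of up to 0.664%. The intervals of plasma-negative replicates 2 and 3 and plasma-positive replicate 4 do not overlap those of the 4 libraries with the larger shares. Plasma-negative replicate 4 had 0 Mobp beside 76 Mbp reads. The floor of 3 counts equals 3.95% of those 76 reads, and the exact interval allows a share of up to 4.74%. These intervals and limits cover counting error only: with no molecular identifiers, reads amplified from 1 molecule may be counted more than 1 time.

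Cnp encodes 2′,3′-cyclic nucleotide 3′ phosphodiesterase, an enzyme of the uncompacted cytoplasmic channels of myelin. Cnp (ENSMUSG00000006782, chromosome 11, 100574904 to 100591729, plus strand) was the highest of the 9 genes per length of exon in both groups, at 19.9 ± 5.94 and 35.3 ± 3.37 RPKM (reads scaled to exon length and to the library's total, SD, n = 4 each). In CPM it was at 68.9, 79.8, 123 and 123 in plasma-negative and at 154, 153, 182 and 154 in plasma-positive replicates 1 to 4. The groups did not overlap. The log2 change was 0.71 ± 0.20 (SE), with an unadjusted p of 0.00388, which missed the threshold after adjustment (edgeR, adjusted p = 0.113). DESeq2 called it (adjusted p = 0.0251), as did limma on log2(RPKM + 1) (adjusted p = 0.0389) and on log2(RPKM + 0.1) (adjusted p = 0.0438). Leaving out plasma-positive replicate 2 gave 0.73 (edgeR, adjusted p = 0.197). In the annotation 154 bases of the exons of Cnp, 4.23% of their length, overlap Dnajc7 on the other strand, whose reads may count to either gene.

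Mag encodes myelin-associated glycoprotein, a sialic acid-binding adhesion molecule on the axonal side of the sheath. Mag (ENSMUSG00000036634, chromosome 7, 30899176 to 30914873, minus strand) was at 22.7, 35.6, 29.8 and 7.40 CPM in plasma-negative and at 29.6, 30.7, 34.5 and 30.2 CPM in plasma-positive replicates 1 to 4. The plasma-positive libraries lay close together and inside the plasma-negative range. Means were 23.9 ± 12.2 and 31.2 ± 2.21 CPM (SD, n = 4 each), a log2 change of 0.37 ± 0.39 (SE; edgeR, adjusted p = 0.754). With 1 library left out it ranged from 0.09, without plasma-negative replicate 4, to 0.62, without plasma-negative replicate 2, and was called in 0 of 8 fits. In plasma-positive replicate 2, where Mbp was highest, Mag lay between the other libraries. Mag made up 15.9% to 16.7% of the Mag and Cnp reads in the 4 plasma-positive libraries and 5.66% to 30.8% in the plasma-negative ones, a difference in spread that was not tested.

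Mal encodes a small proteolipid of myelin and of other lipid-rich membranes, known also from T cells. Mal (ENSMUSG00000027375, chromosome 2, 127633226 to 127656695, minus strand) had 1, 4, 0 and 0 counts in plasma-negative and 67, 535, 50 and 23 counts in plasma-positive replicates 1 to 4. In CPM the plasma-positive libraries were at 7.37, 27.2, 2.54 and 2.57, and the highest plasma-negative library was at 0.252. The groups did not overlap, and the plasma-positive level spread over more than an order of magnitude. Mal had a log2 change of 6.72 ± 1.35 (SE; edgeR, adjusted p = 0.0325). Over all libraries of a group the ratio of its share of counts was 126 (exact 95% counting interval 53.9 to 390), and 39.6 (16.6 to 124) without plasma-positive replicate 2, which held 535 of the 675 plasma-positive counts. Both intervals treat reads as independent and leave out the spread between libraries, so they do not bound the difference between the groups. Mal was called in 2 of the 8 fits that left out 1 library (without plasma-negative replicate 2 and without plasma-positive replicate 3), with log2 changes of 5.48 to 8.34 and adjusted p of 0.048 to 0.151 by edgeR. The lowest value, 5.48, was that without plasma-positive replicate 2, and Mal was also not called by limma-voom, by limma on log2(RPKM + 1) or with the correction for exon length and GC content. The fitted changes of Mal and of Tppp3 depend on the small count edgeR adds to near-empty libraries.

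Tppp3 encodes a tubulin-binding protein related to TPPP, the tubulin polymerization-promoting protein of oligodendrocytes. It is known also from ciliated cells and is not a specific marker of myelin. Tppp3 (ENSMUSG00000014846, chromosome 8, 105467493 to 105471526, minus strand) had 2, 0, 0 and 0 counts in plasma-negative and 30, 97, 132 and 41 counts in plasma-positive replicates 1 to 4. The plasma-positive libraries stood at 3.30, 4.93, 6.70 and 4.58 CPM, so Tppp3 was present at a like level in all 4 and was not highest in replicate 2. Tppp3 had a log2 change of 6.98 ± 1.27 (SE; edgeR, adjusted p = 0.023). The ratio of its share of counts was 140 (exact 95% counting interval 38.5 to 1164), and 144 (39.2 to 1193) without plasma-positive replicate 2. These intervals too leave out the spread between libraries. Tppp3 was called in 0 of the 8 fits that left out 1 library, with log2 changes of 6.61 to 9.03 and adjusted p of 0.0515 to 0.079 by edgeR. With the replicate number as a block it was also not called, at a log2 change of 7.32 (edgeR, adjusted p = 0.101). Without plasma-positive replicate 2 the log2 change was 6.98 (edgeR, adjusted p = 0.0724).

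Both called genes passed the filter on low counts through the plasma-positive libraries alone, so a difference was built into their being tested. With no filter, over 19844 genes, both were also called (edgeR, adjusted p = 0.0275 for Mal and 0.0488 for Tppp3). Of the 13277 tested genes, 25 were above the filter level in all plasma-positive and in no plasma-negative libraries, and 15 of these 25 (60%) were called. Of the markers of ependymal cells, which are ciliated, and tanycytes, 8 of 13 were at 0 in all libraries, among them Foxj1, the regulator of ciliated cells. Their summed level was 9.61 to 12.7 CPM in plasma-negative and 13.5 to 25.8 CPM in plasma-positive libraries, mostly from Rarres2, and their part in the Tppp3 values was not tested.

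Cldn11, Mog and Ermn were too sparse for a firm comparison. Claudin 11, the product of Cldn11 (ENSMUSG00000037625, chromosome 3, 31149920 to 31164324, plus strand), forms the tight junctions between myelin layers. It had 11, 0, 0 and 17 counts in plasma-negative and 10, 363, 23 and 1 counts in plasma-positive replicates 1 to 4. Plasma-negative replicate 4, the shallowest library, was at 5.72 CPM, above all plasma-positive libraries except replicate 2 at 18.5 CPM. The log2 change was 1.90 ± 1.82 (SE; edgeR, adjusted p = 0.722) and turned to -0.85 without plasma-positive replicate 2 (edgeR, adjusted p = 0.931).

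Mog encodes a glycoprotein on the outermost surface of myelin and had fewer counts in plasma-positive libraries. Mog (ENSMUSG00000076439, chromosome 17, 37010743 to 37023398, minus strand) had 91, 77, 0 and 0 counts in plasma-negative and 0, 9, 6 and 0 counts in plasma-positive replicates 1 to 4. It was therefore seen in 2 libraries of each group, at 4.03 and 4.85 CPM and at 0.458 and 0.305 CPM. Ermn (ENSMUSG00000026830, chromosome 2, 58045113 to 58052864, minus strand), a cytoskeletal protein of late oligodendrocyte maturation, had 1, 12, 0 and 0 and then 32, 87, 0 and 0 counts in the same order. Its plasma-positive reads came from replicates 1 and 2, the libraries with the most neuronal RNA. Overlap with Galnt5 on the other strand covers 237 bases of the exons of Ermn (6.52%). Neither gene passed the filter. Without a filter the log2 changes were -3.44 ± 2.06 for Mog and 3.18 ± 2.17 for Ermn (SE; edgeR, adjusted p = 0.403 and 0.467).

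**Figure D2:**
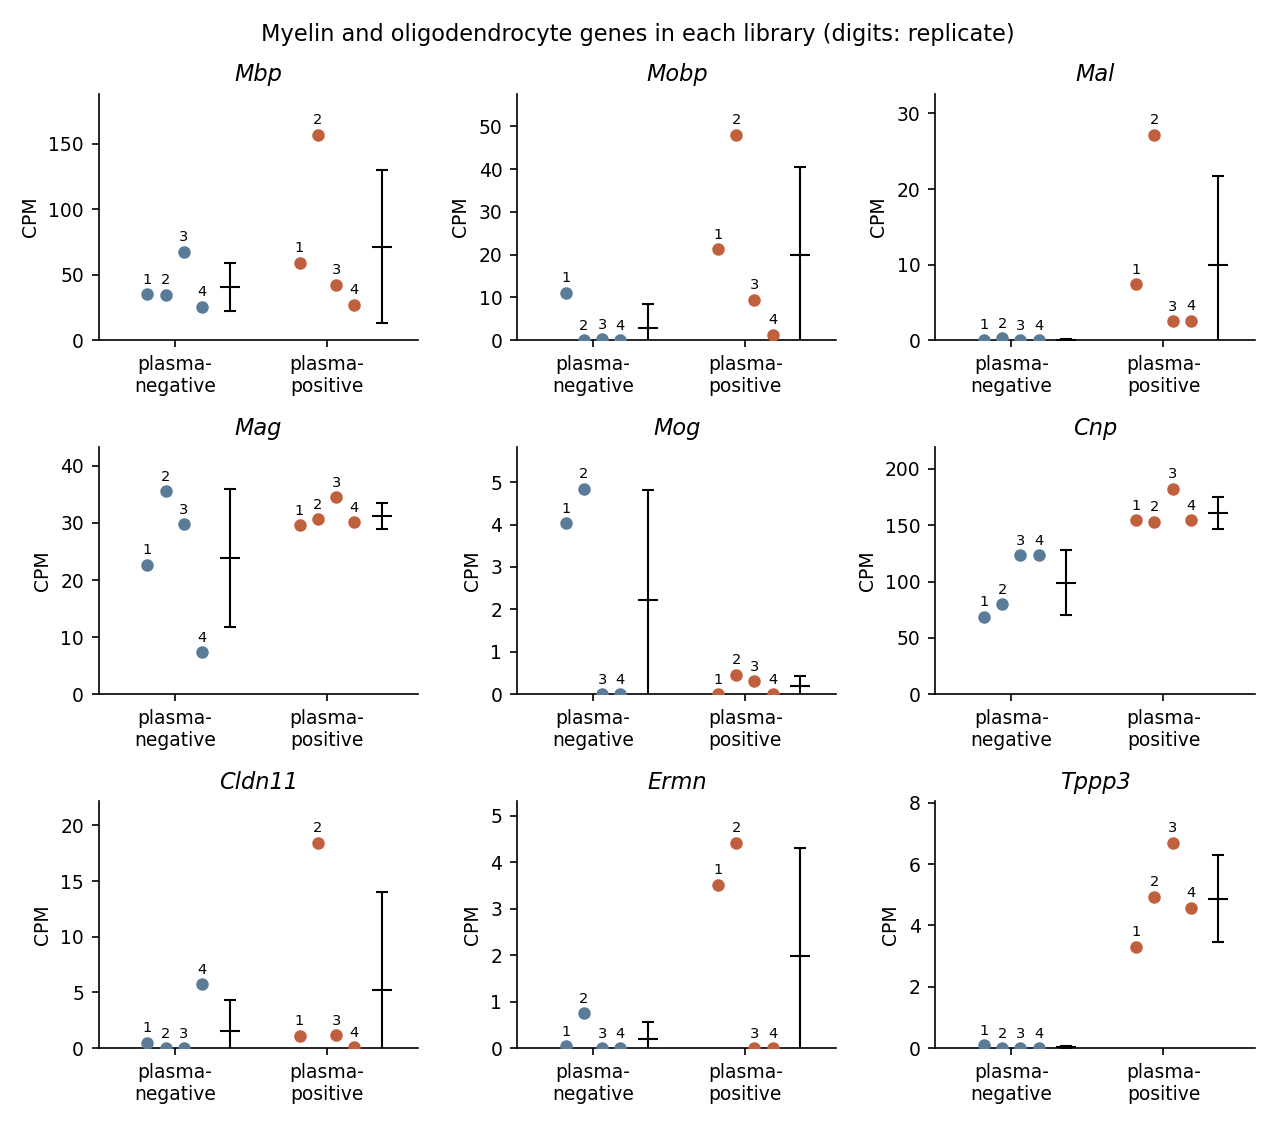
CPM of the 9 genes in each library, with one point per library, its replicate number above it, and the group mean ± SD (n = 4, bars cut at 0) beside the points, on linear axes that start at 0. Mal, Tppp3 and Cnp show no overlap between groups, and Mbp, Mobp, Mal and Cldn11 share a high point in plasma-positive replicate 2, at 157, 48.0, 27.2 and 18.5 CPM.

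Over the 9 genes, 7 passed the filter, and 2 of these were called, both higher in plasma-positive microglia. Among all 13277 tested genes 0.844% were called higher and 0.565% lower, and among the 25 genes that passed the filter as Mal and Tppp3 did, 60% were called, so nothing is read from the 2 of 7. The groups did not overlap for 3 of the 9 genes (Mal, Tppp3 and Cnp), all higher in plasma-positive libraries. Over all tested genes the groups did not overlap for 10.3%, and for 5.68% in that direction. For Mal and Tppp3 the filter had selected on this, so nothing is read from 3 of 9 either. The 7 tested genes all had a positive log2 change, with a median of 1.90 against 0.01 over all tested genes, of which 50.4% were positive. All 7 were positive under each other scaling as well. Since Mal and Tppp3 entered through the plasma-positive libraries alone, and Mobp through these and 1 plasma-negative library, this count and median do not stand for all 9 genes; without a filter 8 of 9 were positive, with a median of 1.89. Mog, the member with lower plasma-positive counts, is not among these 7. Without plasma-positive replicate 2, 6 of 7 were positive with a median of 0.73, and 0 were called by edgeR. An unadjusted p under 0.05 (edgeR) was found for 3, as with all libraries, where 13.8% of all tested genes had one. Without plasma-positive replicate 2, 73 genes of the whole table were called in place of 187.

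**Figure D3:**
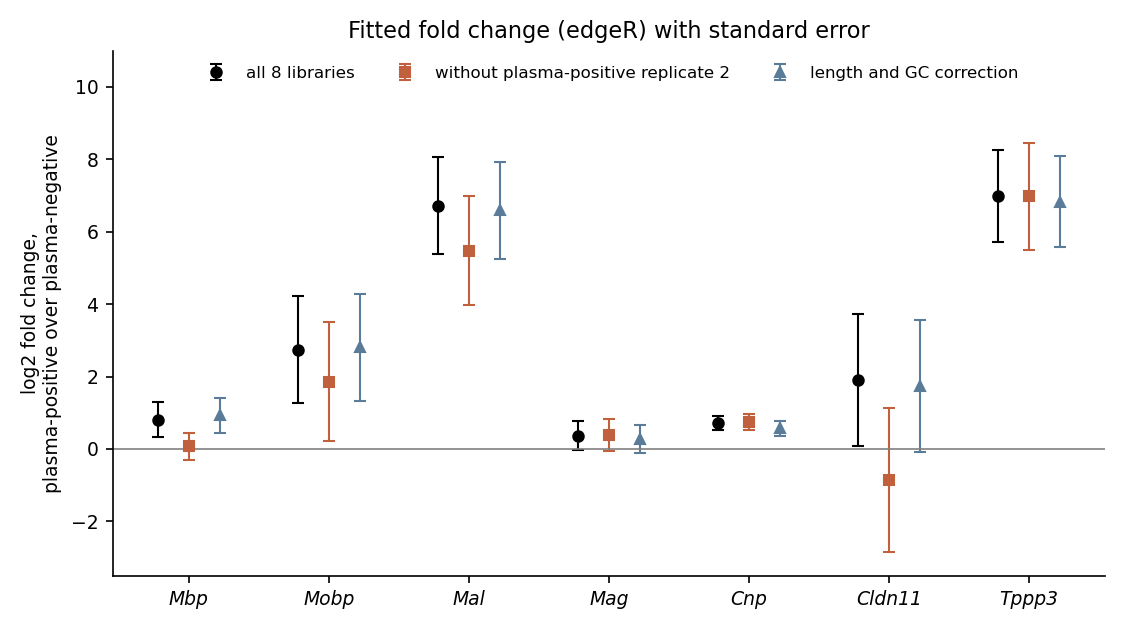
Log2 fold change of the 7 tested genes, plasma-positive over plasma-negative, fitted with edgeR, with the SE as bars, for all libraries (circles), without plasma-positive replicate 2 (squares) and with a correction for exon length and GC content (triangles). Mal and Tppp3 have positive values in all 3 fits, which rest on near-empty plasma-negative libraries and were not called without plasma-positive replicate 2, Mbp drops from 0.80 to 0.07 without that library, and Cldn11 turns to -0.85.

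The order of levels, per length of exon, was led by Cnp in both groups. In plasma-negative libraries Mag at 4.25 ± 2.13 RPKM and Mbp at 3.51 ± 1.56 RPKM (SD, n = 4 each) followed and did not differ beyond their spread. In plasma-positive libraries Mbp at 6.80 ± 5.68 and Mag at 6.12 ± 0.487 RPKM again lay within their spread. Below them came Mal at 2.88 ± 3.45, Mobp at 2.36 ± 2.43, Cldn11 at 2.26 ± 3.85 and Tppp3 at 2.11 ± 0.619 RPKM, 4 neighbours that could not be ordered. Without plasma-positive replicate 2 (SD, n = 3) Mag at 6.12 ± 0.596 RPKM came before Mbp at 4.03 ± 1.56, and Tppp3 at 2.09 ± 0.757 before Mobp at 1.24 ± 1.18, Mal at 1.19 ± 0.807 and Cldn11 at 0.340 ± 0.254 RPKM. In the plasma-negative group Mal at 0.0192 ± 0.0312 and Tppp3 at 0.00876 ± 0.0175 RPKM were last.

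The number of the 9 genes with more than 3 counts also differed between libraries. It was 6, 6, 3 and 4 in plasma-negative and 8, 9, 8 and 6 in plasma-positive replicates 1 to 4. Plasma-positive replicate 1 with 9566295 counts held 8 genes and plasma-negative replicate 3 with 16329713 counts held 3, and the part of depth in these numbers was not tested. Of the 42 other oligodendrocyte and myelin genes, more than 3 counts were found for 21, 18, 15 and 9 in plasma-negative and for 29, 36, 23 and 13 in plasma-positive replicates 1 to 4.

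Mal and Mobp, highest in plasma-positive replicate 2, and Cnp and Mag, which were not, are shown by their promoters, since the pairs peaked in different libraries. A promoter of 300 bases (250 before and 50 after the start) was listed for 7 of the 9 genes in RefSeq, build GRCm38.p6. Searched on both strands were ACAAAG and ACAATG, cores bound by SOX-family factors such as the oligodendrocyte regulator SOX10, and CTGGNAC (N is any base). The last pattern covers sites of MYRF, the factor that drives myelin genes, but may be looser than the motif MYRF binds. Capitals mark every match, and matches to different motifs did not overlap. Each sequence runs 5′ to 3′ on the strand of its gene, and for Mag the first of 3 listed starts is shown.
Mobp, chr9:120149492-120149791, plus strand: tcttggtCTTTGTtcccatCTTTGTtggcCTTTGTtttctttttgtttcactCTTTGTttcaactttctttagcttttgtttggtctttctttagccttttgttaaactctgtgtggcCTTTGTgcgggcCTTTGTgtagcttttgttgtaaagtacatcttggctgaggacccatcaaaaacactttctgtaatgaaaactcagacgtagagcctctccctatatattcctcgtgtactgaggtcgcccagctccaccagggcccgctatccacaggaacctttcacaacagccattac
Mal, chr2:127656646-127656945, minus strand: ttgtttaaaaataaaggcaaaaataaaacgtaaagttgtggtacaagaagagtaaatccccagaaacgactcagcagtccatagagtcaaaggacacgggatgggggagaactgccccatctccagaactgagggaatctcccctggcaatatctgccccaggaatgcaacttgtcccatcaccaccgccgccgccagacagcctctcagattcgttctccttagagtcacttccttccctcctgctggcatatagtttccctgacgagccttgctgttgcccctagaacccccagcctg
Cnp, chr11:100574689-100574988, plus strand: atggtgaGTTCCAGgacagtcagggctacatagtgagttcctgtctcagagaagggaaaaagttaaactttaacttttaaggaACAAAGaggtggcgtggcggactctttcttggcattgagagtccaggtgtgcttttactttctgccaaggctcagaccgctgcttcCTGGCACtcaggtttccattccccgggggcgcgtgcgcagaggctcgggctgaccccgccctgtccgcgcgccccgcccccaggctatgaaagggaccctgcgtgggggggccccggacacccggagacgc
Mag, chr7:30914814-30915113, minus strand: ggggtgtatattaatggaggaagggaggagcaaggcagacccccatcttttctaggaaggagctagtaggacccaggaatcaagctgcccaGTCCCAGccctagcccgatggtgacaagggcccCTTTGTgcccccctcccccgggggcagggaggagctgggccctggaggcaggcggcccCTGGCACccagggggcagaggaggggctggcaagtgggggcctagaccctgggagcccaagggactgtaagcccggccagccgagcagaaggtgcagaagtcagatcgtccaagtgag

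The Mobp promoter held ACAAAG 6 times, all on the reverse strand as CTTTGT, and was the only one of 32851 listed promoters with 6 or more matches. At least 1 ACAAAG was present in 18.7%, ACAATG in 12.6% and CTGGNAC in 19.3% of them. The Cnp promoter and the Mag promoter shown each held ACAAAG 1 time and CTGGNAC 2 times, while the third listed start of Mag held none of the 3. The Mog promoter held CTGGNAC and the Ermn promoter ACAATG 1 time each, and Mal and Cldn11 held none of the 3 motifs in this window. A match describes the letters only and shows no binding.

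The wider myelin programme was read from a list of 42 other oligodendrocyte and myelin genes. Of these, 17 passed the filter, 16 of the 17 had a positive log2 change with a median of 1.37, and 1, Trf, was called, against 1.41% of all tested genes called in either direction. Trf, which encodes the iron carrier transferrin, rose from 1624 ± 85.4 to 2290 ± 181 CPM (SD, n = 4 each), a log2 change of 0.50 ± 0.07 (SE; edgeR, adjusted p = 0.00571). Its groups did not overlap, and it was called in all 8 fits that left out 1 library. Of the 13 microglial markers 11 had a positive log2 change and 3 (Csf1r, Olfml3 and C1qa) were called higher, with a median of 0.13 over the list, and their part in the Trf value was not tested. Trf made up most of the list's summed level, which averaged 1826 and 2663 CPM, and was highest in plasma-positive replicate 3, not in replicate 2.

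The other high genes of the list were tested but not called in the reported fit. Qdpr, a pterin reductase rich in oligodendrocytes, was at 41.7 ± 11.7 and 83.3 ± 25.3 CPM with a log2 change of 1.01 (edgeR, adjusted p = 0.102), and the second mean was 73.1 ± 18.1 CPM without plasma-positive replicate 2 (SD, n = 3). Qdpr was called by DESeq2 and by limma on RPKM values. Ptgds, prostaglandin D synthase, was at 2.82 ± 3.45 and 34.5 ± 47.3 CPM (edgeR, adjusted p = 0.233). Its lowest plasma-positive library was below its highest plasma-negative library, and it peaked in plasma-positive replicate 2, at 104 CPM, without which the plasma-positive mean was 11.2 ± 10.1 CPM (SD, n = 3). Sirt2, a deacetylase of myelin, and Tppp had log2 changes of 0.17 and -0.15 (edgeR, adjusted p = 0.795 and 0.91).

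Of the 41 genes of that list with any count, 29 were highest in plasma-positive replicate 2. Without this library the median log2 change of the 17 tested genes was 0.74, with 14 positive, and Trf was still called (edgeR), as the 1 gene of the list. Without plasma-positive replicates 1 and 2, a fit added after the data were seen, the median was 0.41 over the 19 genes of the list then tested, with 11 positive, and 0.60 over the 8 members then tested, with 5 positive, against -0.03 over all genes. In that fit edgeR called 0 of either list, with 3 members and 1 other oligodendrocyte gene at an unadjusted p under 0.05, and 2 genes of the whole table. The share of all tested genes at such a p was not taken for that fit, so nothing is read from the 3 and the 1. Neuronal markers then had a median of -0.83, where it had been 2.44 with all libraries. Transcription factors of the lineage were low and mostly patchy. Nkx6-2 had more than 3 counts in 7 of 8 libraries, at 1.04 ± 0.755 and 1.79 ± 0.967 CPM (SD, n = 4 each). Olig1 had 122 counts in plasma-negative replicate 1, 56 and 77 in plasma-positive replicates 1 and 2, and 0 elsewhere. Sox10 had 1 count in the whole series, Olig2 had 34 counts in plasma-positive replicate 1 and 1 in replicate 2, and Myrf had 25 counts, all in plasma-positive replicate 2.

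**Figure D4:**
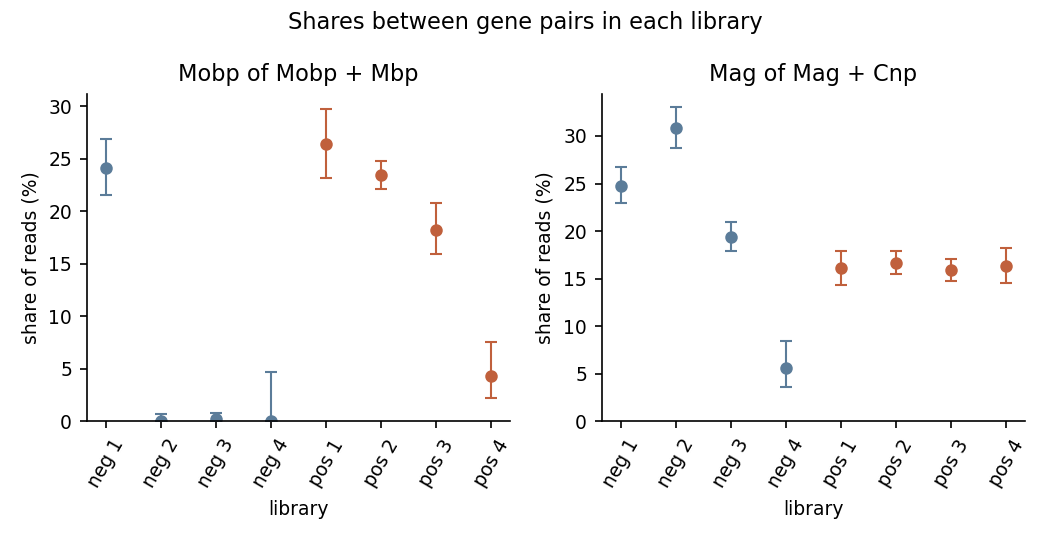
Share of reads, in percent, that fell to the first gene of each pair in each library, with exact 95% intervals for counting error, plasma-negative libraries (neg) in blue and plasma-positive libraries (pos) in orange. The Mobp share is near 0 in plasma-negative replicates 2 to 4 and between 18.3% and 26.4% in 4 libraries of both groups, while the Mag share stays between 15.9% and 16.7% in plasma-positive libraries.

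The tested genes whose profile over the 8 libraries came closest to that of Mbp were Fam78a, Camk2n1, Batf2, Mrpl54, Clk4, Nfs1, Scd2 and Fkbp3. Likeness was the root-mean-square difference of log2 CPM after centring each gene on its mean, and was 0.39 to 0.46 for these 8 against a median of 0.98 over 13276 genes. The closest member was Cnp at 0.79, in place 2248, and the next was Mag at 0.82, in place 2853. Mobp, at 2.79, was in place 13196, near the end of the order. The measure is not scaled to a gene's own spread, so genes with libraries at or near 0 come out far from Mbp. Cldn11, Mal and Tppp3 were likewise in places 12465, 12778 and 12801. The place of Mobp therefore does not show an unlike pattern: it and Mbp were both highest in plasma-positive replicate 2.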

How the data were processed

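Per the file headers, the authors deposited a table of whole-number read counts per gene and a table of RPKM values (scaled to exon length and library total) for the same 8 libraries. The submitters' processing notes name bcl2fastq, Trim Galore, STAR, HTSeq and build mm10, and their versions, settings and use of strand are not given in the sources used here. Exon lengths, GC content and overlaps came from GENCODE M21 (99.9% of identifiers matched). The whole count table was tested in R 4.3.3 with edgeR 4.0.16 (TMM factors, default expression filter, quasi-likelihood test of group, Benjamini-Hochberg adjustment, threshold 0.05). The filter asks for 10 counts at median depth, 0.634 CPM, in 4 libraries. CPM are counts scaled by TMM-adjusted totals of tested genes, with a prior count of 2 for logs. Genes named were all 9 members, the called and the 6 highest genes (mean RPKM) of the oligodendrocyte list, up to 3 of each other list, and the 8 profiles nearest to Mbp; some of the genes this rule names are not reported here. The members and lists were chosen with earlier results of these data known. Alternatives were DESeq2 1.42.0, limma 3.58.1 (voom with quality weights, and log2 of RPKM plus 1 or 0.1), other scalings and filters, thinning, loess correction for GC content and exon length, the replicate number as a block, and leaving out libraries.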

Additional observations from a re-analysis of the deposited data

Results flagged for a closer look

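Of 38 groups of 4 libraries examined (the 9 genes and 10 marker lists in both groups), 9 held a value far from the other 3, where chance gives about 5% of groups for normal values. Sparse genes with 3 libraries at or near 0 pass this rule easily, so nothing is read from the number. Among the members these were Mobp at 11.1 CPM in plasma-negative replicate 1 (nearest other library 0.175), Cldn11 at 5.72 CPM in plasma-negative replicate 4 (nearest 0.487) and Ermn at 0.755 CPM in plasma-negative replicate 2 (nearest 0.0443). Tppp3 at 0.0886 CPM in plasma-negative replicate 1 rests on 2 counts, where the other 3 libraries had 0. Cnp at 182 CPM in plasma-positive replicate 3 (nearest 154) and Cldn11 at 18.5 CPM in plasma-positive replicate 2 (nearest 1.17) were the others. Among the marker lists, ependymal and tanycyte markers summed to 25.8 CPM in plasma-positive replicate 2, mural and fibroblast markers to 4.12 CPM in plasma-negative replicate 1, and microglial markers to 91937 CPM in plasma-negative replicate 4. Of the 9, 2 were in plasma-positive replicate 2. No cause was tested.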

How the results depend on the processing

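The number of members called was 2 in the reported fit (Mal and Tppp3). It was 3 with DESeq2 and with limma on log2(RPKM + 0.1) (Mal, Cnp and Tppp3) and 2 with limma on log2(RPKM + 1) (Cnp and Tppp3). It was 1 with limma-voom (Tppp3), with the length and GC correction (Tppp3), after thinning (Tppp3; Mal and Cldn11 no longer passed the filter) and with the replicate number as a block (replicate block, Mal). It was 0 with the block and that correction together and, in a fit added after the data were seen, without plasma-positive replicates 1 and 2. It was 0 to 1 over the 8 fits without 1 library. Between 3 and 4 members had an unadjusted p under 0.05 in each of these fits. In the reported edgeR fit 13.8% of all tested genes had such a p. The filter had selected Mal and Tppp3 for high plasma-positive counts, so nothing is read from these numbers. Libraries with the same number deviated together with a correlation of 0.0109 to 0.0315 and 3 of the 8 libraries correlated best with their own number. For libraries with different numbers the correlation was -0.0493 to 0.0492. The labels do not say what libraries of the same number share, so the numbers were not used to pair libraries in the reported fit. These correlations cannot tell whether such libraries came from the same animals. With the block, 74 genes of the whole table were called in place of 187. DESeq2 called 963 (480 higher). Scaling by library totals alone moved the median of all genes to -0.11 and gave 64 higher and 163 lower calls in place of 112 and 75, and limma on log2(RPKM + 1) gave 388 higher and 59 lower with a median of 0.11. Every member tested stayed positive in both.

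The number of other oligodendrocyte genes called was 1. It was 3 with DESeq2 (Trf, Qdpr and Anln), 2 with limma on RPKM at both pseudocounts, and 0 with the block and correction together and without plasma-positive replicates 1 and 2. The log2 ratio of summed CPM stayed positive in all 14 alternatives, and was 0.61 without plasma-positive replicate 2 and 0.55 without plasma-positive replicates 1 and 2. Values that changed sign, none of them called, were Mbp at -0.23 and Cldn11 at -1.17 without plasma-positive replicates 1 and 2, and Cldn11 at -0.85 without plasma-positive replicate 2. Over the 8 fits without 1 library Cldn11 ranged from -0.85 to 4.90, the highest without plasma-negative replicate 4. The cause was not tested. In plasma-negative replicate 4, the shallowest library, 0 counts allow a level of up to 1.01 CPM.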
